A study of Saccharomyces cerevisiae YPS1009 with 40 samples.

Results

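The 41 genes described here encode the nuclear part of the yeast respiratory chain and its ATP synthase, and were taken by name from the 6714 genes counted. They comprised 3 mitochondrial NADH dehydrogenases, 4 subunits of succinate dehydrogenase (complex II), 9 of the cytochrome bc1 complex (complex III), 2 cytochrome c genes, 9 of cytochrome c oxidase (complex IV) and 14 of ATP synthase with its inhibitor. The choice was made by name and not by a measured value, although earlier results of these data were known. All 41 passed the filter on low counts. The study asked how an extra chromosome changes the way budding yeast enters and maintains quiescence, the resting state that follows nutrient exhaustion. Total RNA was sequenced in cultures of 5 haploid derivatives of the wild oak-soil strain YPS1009, all listed as MATa. Samples were taken in log phase and on days 1, 3 and 7, in 2 cultures each, which gave 40 libraries. The aneuploid strains were YPS1009_Chr4, YPS1009_Chr14 and YPS1009_Chr15, which carry the ho-Δ1 allele, and YPS1009_Chr12, which carries hoΔ::HphMX, and each has its named chromosome in duplicate. They were set against the euploid strain, also hoΔ::HphMX, so that for 3 of the 4 aneuploids the HO allele cannot be told apart from the duplication. Each karyotype was a single strain, grown in rich YPD medium, and both cultures of a group are listed under it. In YPS1009_Chr15 the 2 cultures differed in mating-type transcripts in log phase and on day 1, as given below.

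In Saccharomyces cerevisiae electrons enter the chain from NADH dehydrogenases that do not pump protons and from succinate dehydrogenase, pass through ubiquinone to the bc1 complex, then through cytochrome c to cytochrome c oxidase, which reduces oxygen. The bc1 complex and the oxidase pump protons, and ATP synthase uses the gradient to make ATP. Cells growing on glucose ferment and repress many of these genes, and the repression is lifted when glucose runs out, a change in which the HAP2/3/4/5 complex, which binds the sequence CCAAT, is known to act. Several steps have a pair of isoforms, one used in growth with oxygen and one associated with stress or low oxygen. All values below are relative levels within a library, as CPM (read counts divided by the library size times its TMM factor, a scaling factor that sets the bulk of genes level between libraries), or log2 differences between such levels. The deposited table holds no counts of added Schizosaccharomyces pombe cells and RNA per cell was not measured here, so a gene whose level rose can have fallen per cell, and fewer cells and less RNA per cell cannot be told apart.

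The DNA upstream of 6 of these genes is printed because the genes form 3 contrasting sets in the results: CYC7 and CYC1, NDE2 and NDE1, and SDH2 and SDH3. In each set the first gene was higher on day 3 than in log phase in euploid cells, and the second was lower. The stretch from 400 to 101 bases before the start codon was read from the RefSeq S288C R64 genome, which does not hold the YPS1009 variants. Capitals mark the motifs CCAAT and CCCCT on either strand (ATTGG and AGGGG when read on the other one). CCCCT is the core of the stress response element.
CYC7 (chrV:80078-80377, minus strand): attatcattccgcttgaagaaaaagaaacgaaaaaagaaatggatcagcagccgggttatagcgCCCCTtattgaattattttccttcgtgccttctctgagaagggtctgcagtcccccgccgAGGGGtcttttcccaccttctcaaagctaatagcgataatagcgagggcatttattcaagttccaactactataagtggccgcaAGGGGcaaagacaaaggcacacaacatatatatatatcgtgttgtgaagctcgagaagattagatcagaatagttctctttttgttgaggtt
CYC1 (chrX:525935-526234, plus strand): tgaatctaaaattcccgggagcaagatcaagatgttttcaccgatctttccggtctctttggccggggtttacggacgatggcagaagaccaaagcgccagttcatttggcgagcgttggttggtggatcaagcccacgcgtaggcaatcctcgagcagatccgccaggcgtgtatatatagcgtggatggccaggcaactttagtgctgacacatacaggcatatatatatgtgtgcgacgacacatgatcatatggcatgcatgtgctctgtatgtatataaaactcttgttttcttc
NDE2 (chrIV:302811-303110, plus strand): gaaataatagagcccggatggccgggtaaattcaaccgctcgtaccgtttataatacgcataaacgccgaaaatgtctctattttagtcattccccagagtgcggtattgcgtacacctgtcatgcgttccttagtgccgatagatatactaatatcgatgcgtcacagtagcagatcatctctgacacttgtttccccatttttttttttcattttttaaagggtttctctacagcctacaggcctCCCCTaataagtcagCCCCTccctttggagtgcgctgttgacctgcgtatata
NDE1 (chrXIII:556576-556875, minus strand): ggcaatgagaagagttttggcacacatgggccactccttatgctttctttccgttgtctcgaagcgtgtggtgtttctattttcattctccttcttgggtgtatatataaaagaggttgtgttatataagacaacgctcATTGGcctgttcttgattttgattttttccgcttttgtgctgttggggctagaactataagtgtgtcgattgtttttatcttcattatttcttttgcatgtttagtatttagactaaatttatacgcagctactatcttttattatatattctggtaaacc
SDH2 (chrXII:54032-54331, minus strand): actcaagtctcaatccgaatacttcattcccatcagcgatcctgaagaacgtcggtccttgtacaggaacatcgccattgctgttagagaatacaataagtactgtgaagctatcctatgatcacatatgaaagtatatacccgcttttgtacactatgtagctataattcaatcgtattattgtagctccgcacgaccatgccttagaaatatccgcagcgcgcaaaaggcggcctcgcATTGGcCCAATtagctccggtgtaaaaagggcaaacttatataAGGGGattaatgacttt
SDH3 (chrXI:179267-179566, plus strand): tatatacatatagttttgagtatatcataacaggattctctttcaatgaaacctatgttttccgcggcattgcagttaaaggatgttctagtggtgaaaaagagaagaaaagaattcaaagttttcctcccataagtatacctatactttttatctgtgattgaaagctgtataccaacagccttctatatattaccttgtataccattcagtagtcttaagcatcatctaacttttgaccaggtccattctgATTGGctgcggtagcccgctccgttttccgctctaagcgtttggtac
CCCCT was present upstream of CYC7, NDE2 and SDH2 and not upstream of CYC1, NDE1 and SDH3, while CCAAT was present upstream of NDE1, SDH2 and SDH3. The highest and lowest member of the other complexes on day 3 did not show this contrast: CCCCT was in neither window of QCR7 and QCR2 or of COX13 and COX4, and it was found 2 times in each of those of INH1 and ATP2. Over all members, CCAAT was found in 36 of 41 windows (87.8%), against 43.9% of the 6001 windows of nuclear protein-coding genes. It was in all 14 ATP synthase windows and all 4 succinate dehydrogenase windows, and it was missing from those of CYC1, CYC7, NDE2, CYT1 and COX4. CCCCT was found in 16 members (39.0%) and in 23.5% of all genes. The motifs ATTGTT, the core of the Rox1 site, and CCNNNNNNCCG, part of the Cat8 and Sip4 site, were searched on both strands in the same way and were in 29.3% and 17.1% of member windows, against 31.9% and 14.6% of all windows. The motifs can overlap one another, and a match is a description of the letters, not a bound site.

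Library totals were 4182717 to 7036849 counts in log phase, 1997415 to 3792145 on day 1, 1033073 to 2228477 on day 3 and 725316 to 2324046 on day 7. Some libraries stood apart. The second euploid culture of day 7 had a median member change from euploid log phase of -1.55, against -0.41 in the first culture, and 4858 against 19020 CPM summed over 6 stationary-phase marker genes (SPG1, SPG4, HSP12, HSP26, SNZ1 and CTT1). YPS1009_Chr12 had only 880.6 to 2540 CPM of those markers on days 1 and 3, with all 6 detected, against 11010 to 42950 CPM in the other strains. Replicate 1 of YPS1009_Chr15 expressed alpha-specific genes in log phase and on day 1 (1925 and 1673 CPM over 3 genes). It had few a-specific transcripts there (11.4 and 12.2 CPM over 4 genes), although the strain is listed as MATa. In log phase YPS1009_Chr14 and YPS1009_Chr15 had 93.6 to 172 CPM of the stationary markers, against 24.6 to 40.8 CPM in the other strains. YPS1009_Chr4 on day 7 had 11.4% and 9.91% of its counts on the mitochondrial genome and TMM factors of 0.316 and 0.381. YPS1009_Chr12 on day 7 had 12.99% and 10.8% of its counts there, with TMM factors of 0.619 and 0.913, and carried more log-phase marker transcripts than any other library of days 1 to 7. What these differences contribute to the member values was not tested, except where a value without the library is given.

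In euploid cells most of the module rose on day 1, and by day 3 its genes had moved apart. On day 1 against log phase 35 of 41 members rose and 2 fell, in a comparison where 34.3% of all genes rose and 35.0% fell, with a median log2 change of 1.15 over the members and -0.00 over all 5864 genes tested. On day 3 against log phase 16 members rose and 15 fell (38.7% and 41.4% of all genes), with a member median of 0.07 and a median of -0.16 over all genes. On day 7, 7 members rose and 22 fell (37.5% and 38.2% of all genes), and the member median was -0.96, or 12 and 18 with a median of -0.41 when the second euploid culture of day 7 was left out. When only the euploid libraries were fitted, 23 members rose and 1 fell on day 1, 11 and 13 on day 3, and 4 and 18 on day 7. With genes under 10 counts in any library removed, which kept 28 members, the numbers were 14 and 2, 5 and 19, and 2 and 23. On day 3 against day 1, 1 member rose and 26 fell (30.9% and 36.3% of all genes). On day 7 against day 3 no member rose and 18 fell (21.8% and 13.5% of all genes), but none fell when only the euploid libraries were fitted, 5 fell when the second day 7 culture was left out, and 31 when the first was. Calls are edgeR's quasi-likelihood test at a Benjamini-Hochberg adjusted p under 0.05, and the 2 cultures of a group measure only the spread between cultures of 1 strain.

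**Figure D1:**
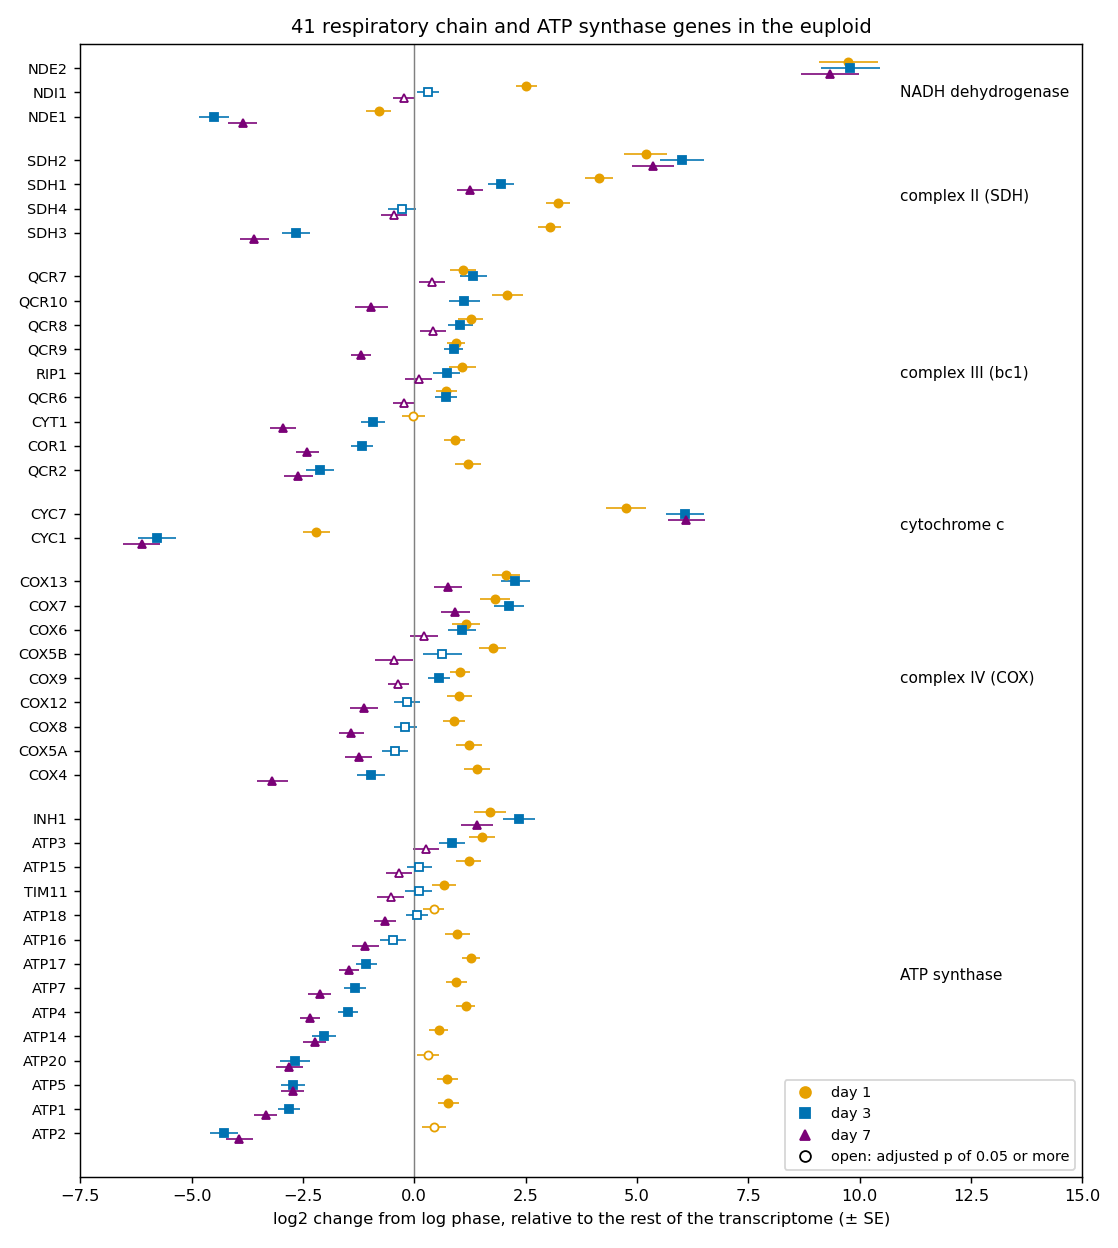
Log2 change of each of the 41 members in the euploid strain on days 1, 3 and 7 against log phase, grouped by complex (bars are SE). On day 1 35 members were above zero and past the threshold, while by day 3 the genes had spread between -5.77 for CYC1 and 9.79 for NDE2.

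The NADH dehydrogenases moved in opposite directions. NDE2 (YDL085W), one of the 2 external enzymes that oxidise cytosolic NADH, had 2.94 and 2.43 CPM in euploid log phase, 2555 and 2170 CPM on day 1, 2963 and 1915 CPM on day 3, and 2968 and 604 CPM on day 7. No day overlapped with log phase, and its log2 changes were 9.75 ± 0.66, 9.79 ± 0.66 and 9.34 ± 0.65 (SE, 2 cultures each). NDE1 (YMR145C), the other external enzyme, had 838.6 and 828.6 CPM in log phase, 438 and 522 CPM on day 1, 41.2 and 32.9 CPM on day 3, and 34.3 and 76.8 CPM on day 7. Each day lay below log phase in both cultures, with log2 changes of -0.80 ± 0.28, -4.49 ± 0.34 and -3.86 ± 0.32, although the first of these did not pass the test when total counts were used for scaling, when the euploid libraries were fitted alone, or without the first culture of day 1. NDI1 (YML120C), the internal enzyme facing the matrix, had 49.5 and 46.4 CPM in log phase, 289 and 262 CPM on day 1, 63.9 and 54.8 CPM on day 3, and 49.2 and 34.6 CPM on day 7. It rose on day 1 (log2 2.52 ± 0.24), and its later values of 0.31 ± 0.25 and -0.23 ± 0.24 did not pass the test.

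Succinate dehydrogenase, the citric acid cycle enzyme that passes electrons to ubiquinone, rose as a unit on day 1 and came apart by day 3. On day 1 all 4 subunits rose (34.3% of all genes), by 3.04 ± 0.26 (SDH3) to 5.20 ± 0.48 (SDH2). SDH2 (YLL041C), the iron-sulphur subunit, had 32.2 and 30.6 CPM in euploid log phase, 1210 and 1094 CPM on day 1, 2291 and 1782 CPM on day 3, and 2129 and 468 CPM on day 7. It stayed far above log phase at every later time, with log2 changes of 6.02 ± 0.49 on day 3 and 5.36 ± 0.48 on day 7. SDH3 (YKL141W), a membrane anchor subunit, had 76.1 and 76.9 CPM in log phase, 652 and 607 CPM on day 1, 11.3 and 12.8 CPM on day 3, and 8.35 and 5.32 CPM on day 7. It rose on day 1 and was below log phase in both cultures on days 3 and 7, by -2.66 ± 0.32 and -3.59 ± 0.32. SDH1 (YKL148C), the flavoprotein, had 84.6 and 102 CPM in log phase, 1761 and 1547 CPM on day 1, 389.7 and 334 CPM on day 3, and 290.5 and 158 CPM on day 7, a change that remained past the threshold at 1.25 ± 0.29 on day 7. SDH4 (YDR178W), the other membrane anchor, had 30.8 and 28.6 CPM in log phase, 291 and 268 CPM on day 1, 20.6 and 28.3 CPM on day 3 and 25.1 and 19.6 CPM on day 7, and did not differ from log phase on the later days (-0.27 and -0.45). SDH1, SDH3 and SDH4 have close copies elsewhere in the genome, and how reads shared between copies were counted is not given in the sources used here.

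The bc1 complex rose moderately on day 1, when 8 of its 9 members passed the test (34.3% of all genes rose). QCR7 (YDR529C), which encodes a small subunit of the complex, had 158 and 162 CPM in euploid log phase, 344 and 338 CPM on day 1, 399 and 402 CPM on day 3, and 329 and 99.1 CPM on day 7. It was the complex's highest member on day 3 (1.32 ± 0.30), a value that was -0.14 and not called when genes under 10 counts in any library were removed, and on day 7 its cultures lay on either side of log phase. QCR2 (YPR191W), a core subunit, had 309.5 and 284 CPM in log phase, 699 and 667 CPM on day 1, 58.8 and 77.7 CPM on day 3, and 75.2 and 27.3 CPM on day 7. It was below log phase in both cultures of day 3 (-2.12 ± 0.32), in the same libraries in which QCR7 was above it. Of the 9 members 6 rose and 3 fell on day 3 (38.7% and 41.4% of all genes). On day 7 none rose and 5 fell (37.5% and 38.2%). COR1, the other core subunit, fell with QCR2 on day 3 (-1.17 ± 0.25), and the third was CYT1. The members that were higher on that day were RIP1, the Rieske iron-sulphur protein (0.73 ± 0.30), and the small subunits QCR6, QCR7, QCR8, QCR9 and QCR10, at 0.72 to 1.32. With genes under 10 counts in any library removed, 5 of the 28 members kept in the whole module were higher on day 3. Rises of this size can therefore depend on the filter, as that of QCR7 did. CYT1, the gene of cytochrome c1, was the member with no change on day 1 (-0.02) and was lower than in log phase on day 7 (-2.94 ± 0.29).

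The 2 genes of cytochrome c, the soluble carrier between complexes III and IV, moved in opposite directions. CYC7 (YEL039C), isoform 2, had 0.346 and 0.728 CPM in euploid log phase, 11.7 and 17.4 CPM on day 1, 39.2 and 34.7 CPM on day 3, and 52.9 and 27.9 CPM on day 7. The log-phase values rest on 2 and 3 counts, so the ratio to log phase is given with its 95% counting interval: 29.5-fold (12.2 to 93.0) on day 1, 72.9-fold (29.9 to 231) on day 3 and 68.4-fold (28.6 to 214) on day 7. CYC1 (YJR048W), isoform 1 and the predominant one in growth with oxygen, had 354 and 340.3 CPM in log phase, 71.9 and 78.8 CPM on day 1, 9.28 and 3.66 CPM on day 3, and 5.57 and 4.66 CPM on day 7. With NDE1 it was 1 of the 2 members that fell on day 1 (-2.20 ± 0.30), and it was lower still on days 3 and 7 (-5.77 ± 0.43 and -6.12 ± 0.42).

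All 9 cytochrome c oxidase members rose on day 1 (34.3% of all genes), with a median log2 change of 1.23. COX13 (YGL191W), encoding subunit VIa, had 120.2 and 105 CPM in euploid log phase, 485 and 462 CPM on day 1, 566 and 522 CPM on day 3, and 293 and 94.8 CPM on day 7. It led the complex on day 3 (2.27 ± 0.32), and its day 7 rise of 0.76 was not called when any of 3 of the 4 libraries was left out. COX4 (YGL187C), encoding subunit IV, had 189 and 181 CPM in log phase, 490.5 and 493 CPM on day 1, 84.5 and 103 CPM on day 3, and 33.4 and 11.6 CPM on day 7. It was lower than in log phase on day 3 (-0.97 ± 0.31) and day 7 (-3.18 ± 0.35), with no overlap between the groups, although the day 3 call was lost without the first culture of that day. COX5A and COX5B encode alternative forms of subunit V, the first predominant with oxygen and the second expressed at low oxygen. COX5A had 264 and 269 CPM in log phase, 636 and 618 CPM on day 1, 187 and 207 CPM on day 3, and 165 and 63.9 CPM on day 7. COX5B remained rare, at 4.84 and 6.55 CPM in log phase, 17.9 and 20.2 CPM on day 1, 8.25 and 9.14 CPM on day 3, and 2.78 and 4.66 CPM on day 7. Both forms rose on day 1 (1.23 and 1.76). Of the remaining oxidase members, COX6, COX7 and COX9 were higher on day 3 (0.56 to 2.12), while COX8 and COX12 had values of -0.20 and -0.16 that did not pass the test. Rises at the lower end of that range can depend on the low-count filter, as that of QCR7 did.

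ATP synthase members rose on day 1 and most were lower by day 3. On day 1 11 of its 14 members rose and none fell (34.3% and 35.0% of all genes). On day 3 2 rose and 8 fell (38.7% and 41.4%), and on day 7 1 rose and 10 fell (37.5% and 38.2%). ATP2 (YJR121W), the catalytic beta subunit, had 1127 and 826 CPM in euploid log phase, 1508 and 1138 CPM on day 1, 47.4 and 53.0 CPM on day 3, and 68.7 and 60.5 CPM on day 7. Its fall of 4.28 ± 0.32 on the log2 scale on day 3 was the steepest of the complex. ATP1 (YBL099W), the alpha subunit, had 932 and 888 CPM in log phase, 1572 and 1518 CPM on day 1, 121 and 139 CPM on day 3, and 119 and 65.2 CPM on day 7, which gave a day 3 change of -2.81 ± 0.25. INH1 (YDL181W), the inhibitor that stops the enzyme from hydrolysing ATP, had 49.0 and 54.1 CPM in log phase, 185 and 151 CPM on day 1, 321 and 207 CPM on day 3, and 225 and 57.5 CPM on day 7. It was above log phase in every later library (1.70 ± 0.35, 2.36 ± 0.36 and 1.41 ± 0.36), although on day 7 the value was 0.16 without the first culture and not called. ATP5, the subunit that confers oligomycin sensitivity, and ATP20, a subunit of the membrane part, were also lower on day 3 (-2.72 and -2.67), as were ATP4, ATP7, ATP14 and ATP17 (-2.02 to -1.07). The second member that rose on day 3 was ATP3, the gamma subunit of the central stalk, with 232 and 212 CPM in log phase, 662 and 616 CPM on day 1, 433 and 368 CPM on day 3, and 407 and 131 CPM on day 7. Its day 3 change was 0.85 ± 0.29, in the same libraries in which the alpha and beta subunits fell. A rise of this size can depend on the low-count filter, as that of QCR7 did. ATP15 and ATP16, the other central stalk subunits, ATP18 and TIM11, which are subunits of the membrane part, had day 3 values of -0.48 to 0.12 that did not pass the test.

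**Figure D2:**
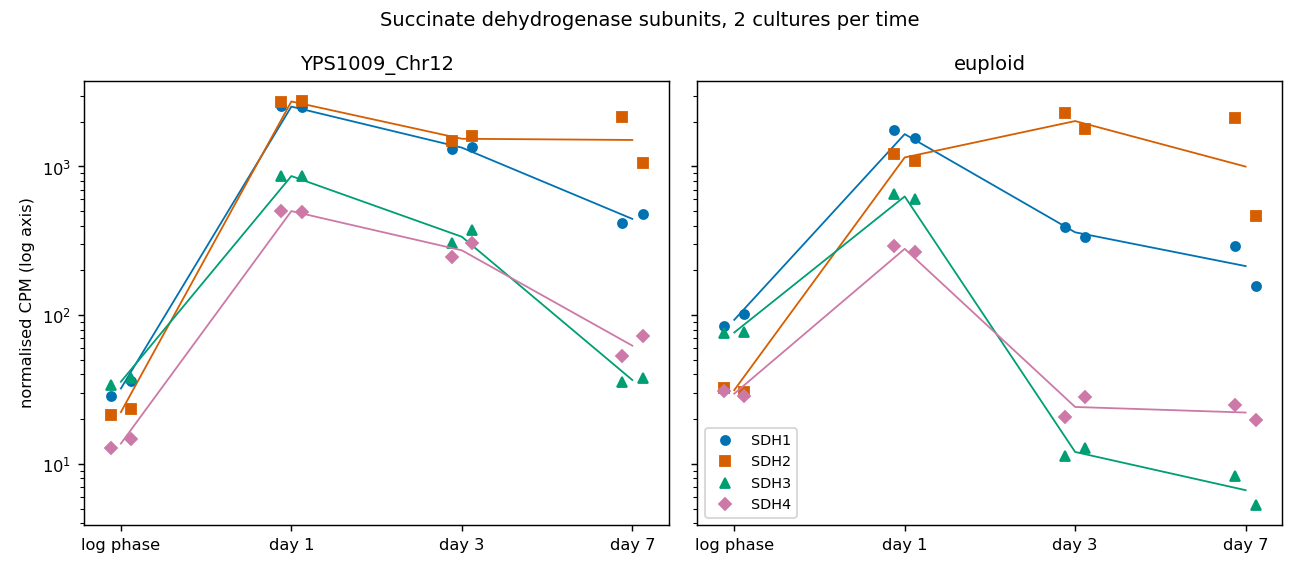
Normalised CPM (log axis) of SDH1, SDH2, SDH3 and SDH4 at the 4 sampling times in YPS1009_Chr12 (left) and the euploid strain (right); points are cultures and lines join the geometric means of 2 cultures. On day 3 SDH3 stood at 304 and 374 CPM in YPS1009_Chr12 and at 11.3 and 12.8 CPM in euploid, and CPM are not corrected for gene length.

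The balance of isoforms was measured as a log2 ratio of the 2 genes per kilobase within each library, over all 5 strains. CYC7 over CYC1 rose in 5 of 5 strains, by a mean of 5.72 on day 1 (SD over strains 1.6), 9.49 on day 3 (SD 2.05) and 10.6 on day 7 (SD 1.10). NDE2 over NDE1 likewise rose in 5 of 5 strains, by 9.07 (SD 1.76), 12.2 (SD 2.73) and 13.1 (SD 1.25). Each of these 6 changes had a two-sided exact permutation p of 0.00026, the smallest that the 7776 splits within strains allow, and an adjusted p of 0.00039 over 9 tests. Taking the mean per strain first leaves 5 strains, with which an exact test cannot go below 0.062. COX5B over COX5A did not pass the test: its mean change was -0.52 on day 1, -0.30 on day 3 and 0.57 on day 7 (SD 1.4, 0.97 and 0.66), with exact permutation p of 0.18, 0.27 and 0.042 and adjusted p of 0.2, 0.27 and 0.054, and it was higher in 2, 2 and 4 of 5 strains. With a pseudocount of 1 count the day 7 change was 0.69 and did pass (adjusted exact permutation p 0.012). In the euploid strain alone that ratio changed by 0.51 on day 1 and 1.11 on day 3, in the other direction from the mean over strains.

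**Figure D3:**
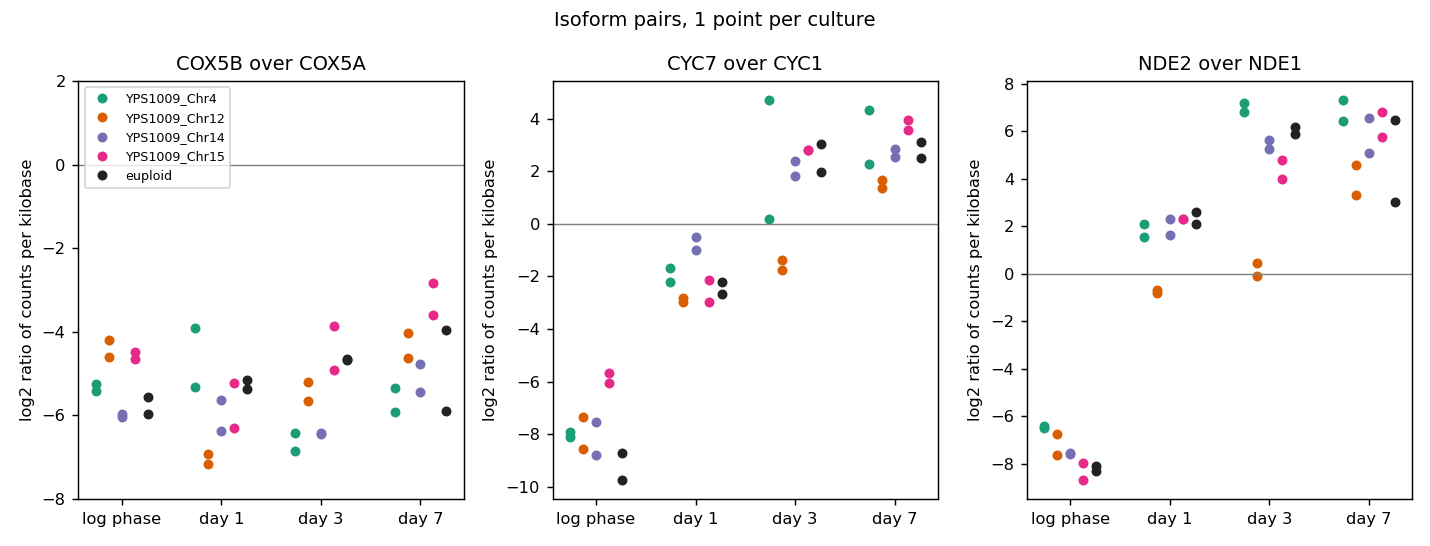
Log2 ratio per kilobase of NDE2 over NDE1, CYC7 over CYC1 and COX5B over COX5A in each library of the 5 strains at the 4 sampling times. The CYC7 over CYC1 ratio had a median of -8.01 in log phase and 2.68 on day 7, and that of NDE2 over NDE1 -7.60 and 6.09, while COX5B over COX5A stayed between -7.16 and -2.83 in every library.

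The other genes of the pathway, from lists of regulators, assembly factors, ubiquinone synthesis and isozymes with the mitochondrially encoded subunits, were also counted in euploid cells. Of 93 such genes 38 rose and 20 fell on day 1 in euploid (34.3% and 35.0% of all genes). On day 3 47 rose and 30 fell (38.7% and 41.4%), and on day 7 45 rose and 25 fell (37.5% and 38.2%). The 7 mitochondrially encoded subunits of the same complexes were mostly higher at every later time: 6 rose on day 1 and all 7 on days 3 and 7. COX1, the catalytic subunit of the oxidase, changed by 3.86, 5.09 and 4.10, and COB, cytochrome b, by 3.22, 4.42 and 2.96. HAP4, the regulated activator subunit of the CCAAT-binding complex, had 119.9 and 95.9 CPM in log phase, 511.7 and 416 CPM on day 1, 78.4 and 88.7 CPM on day 3, and 89.1 and 291 CPM on day 7. It was higher on day 1 (2.10) and did not pass the test on day 3 (-0.37), while its day 7 value of 0.84 rests on the second culture of that day and was -0.28 without it. CAT8, an activator of genes for growth without glucose, and SHH4, a close copy of SDH4, had the largest changes of their lists on day 3 (9.38 and 9.97). SDH8, an assembly factor of succinate dehydrogenase, rose by 5.93, while OXA1, which inserts proteins into the inner membrane, fell by 3.22 on the log2 scale. In the remaining lists the largest day 3 changes were falls in COQ2, RCF2 and NCA2 (-4.53, -4.05 and -3.81). Those of CBP4 and ATP8 were rises (4.31 ± 0.40 and 5.20 ± 2.23). The ATP8 value is poorly determined, and ATP8 was the mitochondrially encoded subunit that did not pass the test on day 1 (4.36 ± 1.99).

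In their own time courses the aneuploids repeated the day 1 rise, and YPS1009_Chr12 was the strain in which no member fell on day 3. Over the 4 aneuploids 131 of 164 gene-strain values rose and 5 fell on day 1 (33.1% and 31.5% over all genes), 77 rose and 56 fell on day 3 (35.6% and 38.1%), and 56 rose and 62 fell on day 7 (36.5% and 40.2%). In YPS1009_Chr12 40 members rose on day 1 and 40 on day 3, none fell on either day, and on day 7 22 rose and 8 fell, where 30.5%, 32.5% and 35.6% of all genes rose and 31.3%, 32.3% and 38.3% fell. In YPS1009_Chr4 the numbers were 32 higher and 2 lower on day 1 (33.1% and 29.6% of all genes), 17 and 14 on day 3 (34.8% and 41%), and 15 and 18 on day 7 (33.3% and 42.5%). YPS1009_Chr14 had 37 higher and 1 lower on day 1 (34.7% and 33.1%), 15 and 15 on day 3 (38.4% and 39.5%), and 14 and 15 on day 7 (38.8% and 39.1%). YPS1009_Chr15 had the fewest that rose on each day: 22 higher and 2 lower on day 1 (34.0% and 32.2%), 5 and 27 on day 3 (36.8% and 39.6%), and 5 and 21 on day 7 (38.4% and 40.9%). All strain contrasts below share the euploid libraries of the same day.

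In TMM-scaled CPM YPS1009_Chr12 had lower levels of most of the module than euploid in log phase and higher ones on days 1, 3 and 7. As a percent of all counts the 41 members together did not stand above euploid on day 7, at 0.602% and 0.698% in YPS1009_Chr12 and 0.891% and 0.476% in euploid. In log phase 26 members were lower and none higher (2.61% and 5.53% of all genes), with a median of -1.0 over the members. INH1 was the lowest, at 6.64 and 9.16 CPM in YPS1009_Chr12, against 49.0 and 54.1 CPM in euploid (-2.71 ± 0.39). SDH1 had 28.7 and 36.1 CPM in YPS1009_Chr12, against 84.6 and 102 CPM in euploid (-1.53 ± 0.29). The number of lower members was 4 when only these 2 strains were fitted, and 7 to 10 with any 1 of the 4 libraries left out, so the extent of the log-phase difference depends on the fit.

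On day 1 25 members were higher and 2 lower in YPS1009_Chr12 (16.2% and 14.8% of all genes), with 13 to 17 higher when any 1 library was left out and 12 when only these strains were fitted. CYC1 had 392 and 422 CPM in YPS1009_Chr12, against 71.9 and 78.8 CPM in euploid (2.43 ± 0.31). NDE2 and COX5B were the lower members (-1.71 and -0.81).

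On day 3 29 members were higher and 1 lower (38.4% and 31.5% of all genes), with a median of 1.29 over the members and 0.22 over all genes. The largest differences were in SDH3, CYC1 and ATP2. SDH3 had 304 and 374 CPM in YPS1009_Chr12, against 11.3 and 12.8 CPM in euploid (4.80 ± 0.32). CYC1 had 144 and 185 CPM, against 9.28 and 3.66 CPM in euploid (4.69 ± 0.43). The beta subunit gene ATP2 had 1092 and 1194 CPM, against 47.4 and 53.0 CPM in euploid (4.51 ± 0.32). NDE1 had 567 and 693 CPM in YPS1009_Chr12, against 41.2 and 32.9 CPM in euploid (4.09 ± 0.33), and NDE2, its partner, had 766 and 639 CPM, against 2963 and 1915 CPM in euploid (-1.80 ± 0.45). In none of these 5 genes did the strains overlap. By complex, 12 of 14 ATP synthase members, 6 of 9 oxidase members, 4 of 9 bc1 members and 3 of 4 succinate dehydrogenase members were higher, and SDH2 was not (1477 and 1597 CPM in YPS1009_Chr12, against 2291 and 1782 CPM in euploid). HAP4 was also higher in YPS1009_Chr12 on day 3 (2.49 ± 0.38). It did not pass the test against euploid in log phase, on day 1 or on day 7 (0.01, 0.54 and -0.05).

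The change since log phase itself differed between YPS1009_Chr12 and euploid. This interaction was positive in 37 members on day 1 (9.23% of all genes), 35 on day 3 (33.2%) and 32 on day 7 (10%), and negative in none (6.74%, 26.1% and 8.05%). On day 3 it reached 5.90 ± 0.40 for SDH3, 5.78 ± 0.41 for ATP2, 5.56 ± 0.53 for CYC1 and 5.19 ± 0.43 for NDE1, and was 0.08 ± 0.57 for SDH2. The stationary-phase markers, low in YPS1009_Chr12 on days 1 and 3, moved with this result, and their part in it was not tested. On day 7, when those markers were at 45540 and 18790 CPM in YPS1009_Chr12 and 19020 and 4858 CPM in euploid, 22 members were higher and none lower (17.9% and 15.4% of all genes). The same YPS1009_Chr12 libraries had 1067 and 819 CPM summed over 4 log-phase markers (HXT1, HXT3, CLN2 and CLB2), against 65.0 and 108 CPM in euploid, and 12.99% and 10.8% of their counts on the mitochondrial genome, against 5.39% and 2.91% in euploid. The part of these differences in the day 7 values was not tested. Without the second euploid culture of day 7 the numbers were 16 higher and 6 lower, without the first 34 and none, and with scaling by total counts 16 and 6.

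**Figure D4:**
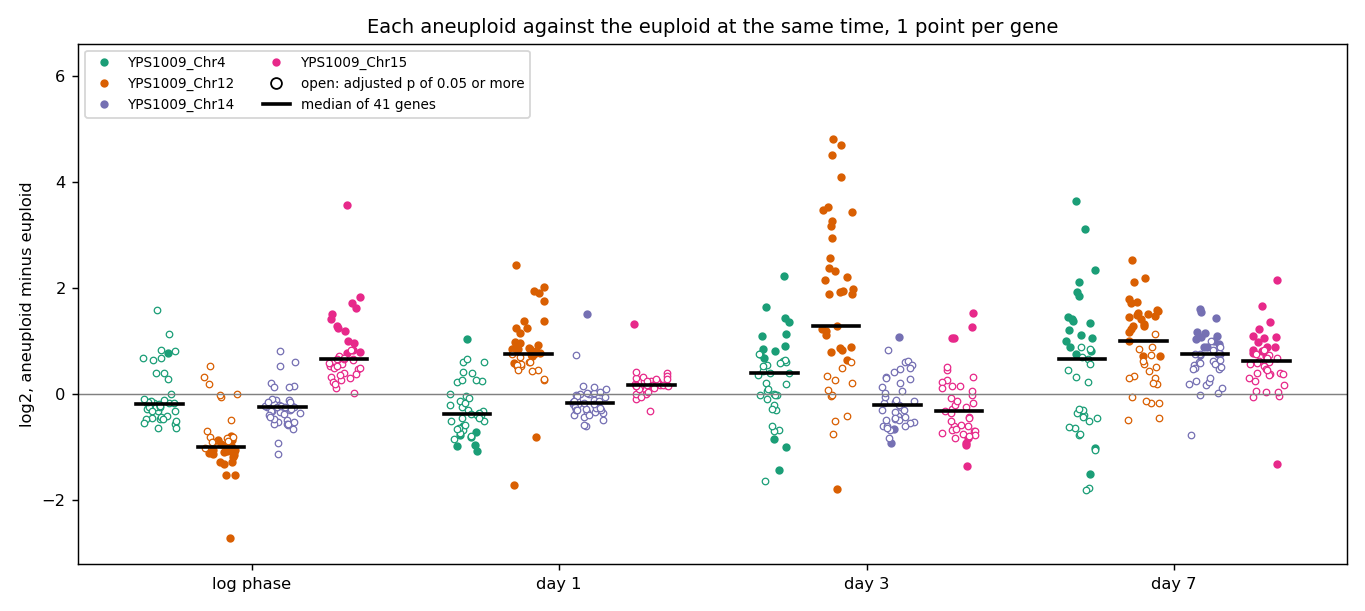
Log2 difference of each aneuploid strain from euploid for the 41 members in log phase and on days 1, 3 and 7 (1 point per gene). YPS1009_Chr12 runs from a median of -1.0 in log phase to 1.29 on day 3, with SDH3 highest at 4.80.

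YPS1009_Chr4 differed from euploid most on day 7, but its counts depend on how libraries are scaled. No member other than ATP17 was called in log phase (1 higher, none lower, against 7.45% and 2.2% of all genes), and that call was lost with any 1 of the 4 libraries left out. On day 1 1 was higher and 7 lower (11.3% and 5.66%), 7 lower becoming none when either the first euploid or the second YPS1009_Chr4 culture of that day was left out. On day 3 11 were higher and 3 lower (17.7% and 13.3%), with 5 to 12 higher and none to 2 lower when 1 library was left out, and on day 7 17 were higher and 2 lower (22.6% and 31.8%), or 10 and 6 without the second euploid culture. QCR8 (YJL166W), a small bc1 subunit, had 982 and 628 CPM in YPS1009_Chr4 on day 3, against 194 and 148 CPM in euploid (2.24 ± 0.30). On day 7 it had 1584 and 1202 CPM in YPS1009_Chr4, against 153 and 73.8 CPM in euploid (3.65 ± 0.31). Its change since log phase differed from that of euploid by 2.68 ± 0.41 on day 3, and COX7, a small oxidase subunit, differed by 1.61 ± 0.47. Over all members this interaction was positive in 6 and negative in 1 on day 3 (11.3% and 8.7% of all genes), and positive in 12 and negative in 3 on day 7 (16.6% and 24.2%). NDE2 had 8720 and 6513 CPM in YPS1009_Chr4 on day 3, against 2963 and 1915 CPM in euploid (1.64 ± 0.44), and ATP17, a subunit of the membrane part of ATP synthase, had 142.5 and 129.9 CPM, against 45.4 and 54.8 CPM in euploid (1.44 ± 0.24). Both lie on chromosome IV, and the NDE2 call was lost without the second euploid culture. With scaling by total counts, which counts the mitochondrial transcripts in full, 2 members were higher and 15 lower on day 3, and 3 higher and 30 lower on day 7, with all genes shifted by a median of -0.80 and -2.48. The day 3 difference of QCR8 passed the test in every alternative run. HAP4 was lower in YPS1009_Chr4 on days 1, 3 and 7 (-1.74, -1.28 and -2.50), but the day 3 call was lost with any 1 of the 4 libraries left out, and the day 7 value was -1.38 without the second euploid culture.

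YPS1009_Chr14 had few members called before day 7. In YPS1009_Chr14 no member was called in log phase (4.45% of all genes higher, 0.563% lower) and 1 was higher on day 1, CYC7 (1.52 ± 0.25; 4.95% higher, 1.79% lower). On day 3 1 was higher and 2 lower (8.94% and 6.31%): COX5A had 459 and 377 CPM in YPS1009_Chr14, against 187 and 207 CPM in euploid (1.09 ± 0.30), QCR6 125 and 128 CPM, against 265 and 216 CPM in euploid (-0.92 ± 0.24), and QCR9 104 and 110.3 CPM, against 164 and 175 CPM in euploid (-0.67 ± 0.22). The last 2 encode small bc1 subunits. The groups did not overlap in these genes, but COX5A and QCR6 lost their calls with any of 3 of the 4 libraries left out and QCR9 with any of 4.

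YPS1009_Chr15 was above euploid in log phase, with 16 members higher and none lower (11.4% and 3.7%), 11 higher without the culture that carried alpha-specific transcripts and 8 to 10 without any other library. SDH2 had 106 and 116 CPM in YPS1009_Chr15 log phase, against 32.2 and 30.6 CPM in euploid (1.82 ± 0.42), and NDI1 had 157 and 159.9 CPM, against 49.5 and 46.4 CPM in euploid (1.72 ± 0.23). Both genes rise in euploid cells on day 1, and the stationary markers were raised in the same YPS1009_Chr15 libraries, and the part of these cells or markers in the values was not tested. HAP4 was also higher in YPS1009_Chr15 in log phase (1.32), and it was lower on day 7 (-1.22, or -0.10 without the second euploid culture). It did not pass the test on days 1 and 3 (0.04 and 0.38), nor in YPS1009_Chr14 at any time. On day 1 1 member, CYT1, was higher in YPS1009_Chr15 (4.42% higher, 0.273% lower over all genes). On day 3 4 were higher and 4 lower (17.3% and 11.6%): SDH3 had 33.8 and 36.3 CPM in YPS1009_Chr15, against 11.3 and 12.8 CPM in euploid (1.53 ± 0.33), ATP2 129.6 and 113 CPM, against 47.4 and 53.0 CPM in euploid (1.27 ± 0.29), and QCR10 85.0 and 55.4 CPM, against 208 and 149 CPM in euploid (-1.35 ± 0.36), a call lost without the first euploid or the second YPS1009_Chr15 culture. The change since log phase was smaller in YPS1009_Chr15 than in euploid for 3 members on day 1 (2.54% of all genes), 18 on day 3 (10.6%) and 5 on day 7 (9.48%), and larger for none (1.26%, 14.3% and 4.13%). SDH2 differed by -2.66 ± 0.58 on day 3. The day 3 number was 10 to 17 with 1 library left out, and on day 7 14 members had a larger change, and 3 a smaller one, without the first euploid culture.

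On day 7 16 members were higher and none lower in YPS1009_Chr14 (7.21% and 9.11%), and 15 higher and 1 lower in YPS1009_Chr15 (12.5% and 17.3%). Without the second euploid culture of that day these became 1 and none in YPS1009_Chr14 and 3 and none in YPS1009_Chr15, and without the first they became 35 and 1, and 31 and 1. Leaving out a culture of the aneuploid itself gave 5 or 6 higher in YPS1009_Chr14 and 7 or 8 in YPS1009_Chr15. The day 7 differences of these strains therefore turn on which euploid culture they are set against.

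In log phase members on the duplicated chromosome were higher, relative to the other members, by amounts close to those over all genes there. In log phase the median of the 9 members on chromosome IV was 0.71 in YPS1009_Chr4, against -0.27 for the other 32, a difference of 0.98 ± 0.02 (SD over the 2 YPS1009_Chr4 cultures), beside 0.99 over all genes. Each culture was set against the mean of the 2 euploid cultures, so the SD leaves out the spread between euploid cultures. In YPS1009_Chr12 the 4 members on chromosome XII (SDH2, COX8, COX12 and ATP14) had a median of -0.01, against -1.04 for the rest, a difference of 1.02, beside 0.97 over all genes. COX5A, the only member on chromosome XIV, had 471 and 465 CPM in YPS1009_Chr14, against 264 and 269 CPM in euploid, and stood 1.09 above the other members, beside 0.94 over all genes. CYT1, the only member on chromosome XV, had 1036 and 1106 CPM in YPS1009_Chr15, against 343 and 349 CPM in euploid, and stood 0.98 above the other members, beside 0.91. Of these 15 gene-strain values 2 were called higher than euploid in log phase, 5 on day 1, 8 on day 3 and 11 on day 7, and none lower. Over all gene-strain values 7.21%, 9.22%, 20.6% and 15.1% were higher at these times, and over the 2187 values on the duplicated chromosomes 49.8%, 53.1%, 48.1% and 44.7%. The log-phase number was 6 to 9 under 5 other settings, and the on-minus-off difference needs no scaling of libraries. On later days it was below that over all genes in some strains and above it in others. In YPS1009_Chr4 it was 0.54 on day 3, beside 0.95 over all genes. In YPS1009_Chr12 it was 0.46 ± 0.29 on day 7, beside 1.04 ± 0.15 (SD over the 2 YPS1009_Chr12 cultures, again without the euploid spread). In YPS1009_Chr14 it was 1.33 on day 3, beside 0.98, and in YPS1009_Chr15 0.99 on day 7, beside 0.79, each from 1 member.

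**Figure D5:**
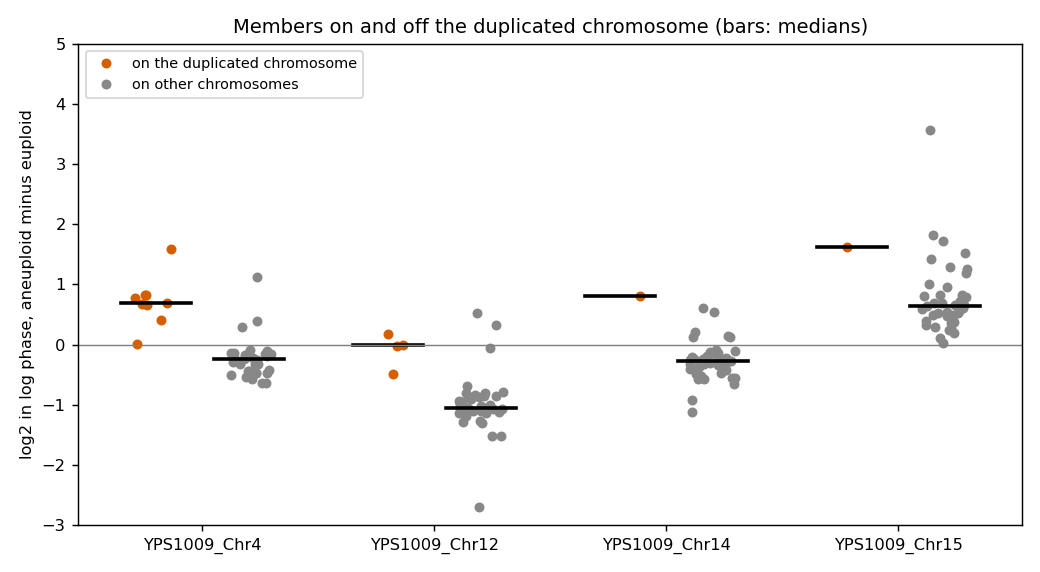
Log2 difference from euploid in log phase for the members on the duplicated chromosome and for the other members, in each aneuploid strain (points are genes, bars medians). The medians on and off the duplicated chromosome were 0.71 and -0.27 in YPS1009_Chr4, -0.01 and -1.04 in YPS1009_Chr12, 0.81 and -0.28 in YPS1009_Chr14, and 1.63 and 0.64 in YPS1009_Chr15.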

How the data were processed

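Per the labels and the study's methods, log-phase cultures were sampled after 3 generations and later ones at 24, 72 and 168 hours, counted from the start of culturing in the labels and from the log-phase harvest in the methods. Cultures were matched by optical density, and rRNA-depleted total RNA was sequenced with a stranded kit. The authors trimmed reads with Trimmomatic 0.39, aligned them with BWA (0.7.12-r1039 in the submitters' notes, bwa-meme in the methods) to S288c carrying YPS1009 variants, and counted with HTSeq 0.7.2. The genome release and the strand setting are not given in the sources used here. The deposited values are raw read counts per gene in 1 table of 6714 genes and 40 libraries, of which 318 genes were 0 everywhere.

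The 5864 genes that reached 10 counts in 2 or more libraries were scaled by TMM and fitted in edgeR 4.0.16 (R 4.3.3, limma 3.58.1) with 1 mean for each of 20 groups. The quasi-likelihood test was adjusted by Benjamini-Hochberg over all genes tested, at 0.05, and the standard error is the log2 change divided by the square root of F. Isoform ratios used counts plus 0.5 per kilobase, with exact permutation within strains. A group of 2 against 2 alone cannot give an exact p below 0.33. The script was tested on simulated data. Gene names and windows came from RefSeq S288C R64 (6025 IDs matched), and no member overlaps another RefSeq gene.

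The members and all lists were chosen with earlier results of these data known. The genes named are the highest and lowest of each complex on day 3 in euploid, the isoform pairs, succinate dehydrogenase, members on duplicated chromosomes and the 3 largest calls of each aneuploid on day 3; others were named after their values were seen. Alternatives were DESeq2 1.42.0 (Wald test, size factors), total counts, 2 other filters, a replicate block, fits of the strains compared, each library left out and, chosen after seeing the data, the mitochondrial genes left out. Counting intervals cover counting error only.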

Additional observations from a re-analysis of the deposited data

Results flagged for a closer look

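The change since log phase was set against that of the euploid strain in each aneuploid, as an interaction in edgeR's quasi-likelihood model, and it differed for at least 1 member in 9 of 12 tests. Over all genes the change was called higher than in euploid for 9.23%, 33.2% and 10% in YPS1009_Chr12 on days 1, 3 and 7. It was called lower for 2.54%, 10.6% and 9.48% in YPS1009_Chr15, and for 8.7% and 24.2% in YPS1009_Chr4 on days 3 and 7. In YPS1009_Chr12 it differed for 37 members on day 1, 35 on day 3 and 32 on day 7, all towards a larger rise or smaller fall. Without the second euploid culture of day 7 the last number was 28. In YPS1009_Chr15 it differed for 3 members on day 1, 18 on day 3 and 5 on day 7, all in the other direction, and without the culture that carried alpha-specific transcripts in log phase for 3, 16 and 3. Without the first euploid culture of day 7, however, 14 members of YPS1009_Chr15 had a larger change on that day and 3 a smaller one. In YPS1009_Chr4 it differed for 7 members on day 3 (6 higher, beside 11.3% of all genes) and 15 on day 7 (12 higher, beside 16.6%), and without the second euploid culture of day 7 for 9 higher and 5 lower. In YPS1009_Chr14 it differed for 9 members on day 7, all higher (1.55% of all genes), for none without that euploid culture, for 31 without the first, and for 1 to 3 without any other library.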

How the results depend on the processing

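Calls depended most on the filter, the samples fitted and total-count scaling. With at least 10 counts in every library (2132 genes, 28 members left), euploid members higher than in log phase numbered 14 on day 1, 5 on day 3 and 2 on day 7, 0 were higher on day 3 than on day 1 and 1 on day 7 than on day 3. Under that filter 67, 41 and 21 aneuploid values were above their own log phase on days 1, 3 and 7, 5 and 7 were below euploid on days 3 and 7, the day 3 interaction was negative in 11, 7 of 15 values on a duplicated chromosome were higher, and of the other pathway genes 18 rose and 11 fell on day 1, 19 and 8 on day 3, and 20 and 7 on day 7. QCR7 then turned to -0.14 on day 3 and -0.90 on day 7 and COX13 to -0.52 on day 7. With 1 library left out the day 7 values ranged from -0.69 to 1.04 and from -0.25 to 1.38, the lowest without the first euploid culture of day 7. With total counts 1 euploid member was lower on day 1, 3 were higher and 8 lower on day 7 than on day 3, and 15 other pathway genes were lower on day 7. Aneuploid values above euploid were then 42 in log phase and 43 on day 1, those below were 4, 18 and 37 on days 1, 3 and 7, interactions were negative in 11, 31 and 34, and 9 of 15 duplicated values were higher. With only the strains compared, 23 euploid members were higher and 1 lower on day 1, 4 were higher on day 7 and 0 lower on day 7 than on day 3. In those fits 4 aneuploid values were below euploid in log phase, 13 above and 1 below on day 1, and 42 above and 9 below on day 7. Interactions were then positive in 24 on day 1, negative in 10 on day 3, and positive in 29 and negative in 5 on day 7, with 9 and 16 other pathway genes lower on days 1 and 7. DESeq2's Wald test gave 1 euploid member higher on day 7 than on day 3, 8 aneuploid values below their log phase on day 1, 31 above and 40 below euploid in log phase, 17 below on day 1, 10 negative day 1 interactions and 9 duplicated values. With the mitochondrial genes left out the numbers were 32 above euploid in log phase, 14 and 10 below on days 1 and 7, 8 negative day 1 interactions and 8 duplicated values, and with no filter 6. The cause of these shifts was not tested, beyond the fewer genes or samples used.

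With 1 library left out, euploid members lower on day 1 were 1 to 2, higher on day 7 4 to 12, and on day 7 against day 3 0 to 1 higher and 5 to 31 lower. The day 3 member median ranged from -0.10 to 0.12, that of day 1 from 1.01 to 1.17 and that of day 3 against day 1 from -1.23 to -1.19. Aneuploid values above and below euploid were 8 to 17 and 7 to 26 in log phase, 16 to 28 and 1 to 11 on day 1, 2 to 11 below on day 3, and 30 to 122 and 2 to 12 on day 7. Negative interactions were 11 to 20 on day 3 and 4 to 11 on day 7, with 37 to 103 positive on day 7. Duplicated values higher in log phase were 1 to 2, those on other chromosomes 7 to 15, and the COX5B over COX5A change on day 7 was 0.38 to 0.76. The mean per strain taken first gave the same 5.72, 9.49 and 10.6 for CYC7 over CYC1 and 9.07, 12.2 and 13.1 for NDE2 over NDE1, with an adjusted exact permutation p of 0.094. A pseudocount of 1 gave 0.69 for COX5B over COX5A on day 7 (adjusted exact permutation p 0.012), and the euploid strain alone 0.51 and 1.11 on days 1 and 3.

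Deviations of same-numbered cultures had a median correlation of 0.027 (range -0.55 to 0.42, over 33 comparisons), and the main fit treated all libraries as independent. In YPS1009_Chr15, however, the alpha-specific transcripts were in replicate 1 both in log phase and on day 1 (1925 and 1673 CPM). Whether libraries with the same number came from 1 culture was not tested. A replicate block changed the negative day 1 interactions to 5 and no other main count by over 1.5 times. Crossing the numbers in 4 comparisons with negative correlations moved all-gene calls between numbered and crossed blocks from 3589 to 3645, 3894 to 4002, 2304 to 2844 and 1 to 75. DESeq2 size factors moved the median over all genes on day 3 in euploid to -0.53 and total counts to -0.39, beside -0.16. Day 7 libraries are the shallowest, which limits rare genes such as CYC7, COX5B and, in YPS1009_Chr4, CYC1 (0 and 1 counts).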
